A study of Mus musculus with 6 samples.

Results

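The genes described are the 4 that encode the ATP-sensitive potassium (KATP) channel: the pore genes Kcnj8 and Kcnj11 and the regulatory genes Abcc9 and Abcc8. They were found by symbol, as rows of the array that the platform annotation pairs with exactly 1 of these names, among 22180 genes measured in all. Where a gene had several rows, its row was to be selected on the highest mean over all 6 arrays, a value that does not use the difference between groups. Each of the 4 had 1 row, so that step changed nothing. The subunits were picked for description with earlier results of these data known, so the differences below describe these samples and are not an independent test of a prior hypothesis.

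Cardiomyocytes were prepared from C57BL/6 mouse hearts at the age of 1 day and enriched by pre-plating, which leaves faster-attaching cells behind. All 6 samples were then kept hypoxic for 12 h, in a gas of 93% N2 with 2% oxygen and 5% CO2. Fibroblast growth factor 21 (FGF21), a circulating metabolic hormone, was present at 1 µg/ml in 3 samples and absent from the 3 controls. Both groups were hypoxic, and cells in normal oxygen were not analysed here. The titles number the samples as biological replicates 1 to 3 of each group without saying whether they came from separate litters or cultures, so the spread behind each p-value may be technical in part. Pre-plated cultures still hold other cells of the heart, and markers of those cells are given beside the results they move with.

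KATP channels close when cytosolic ATP is high and open as ATP falls and ADP rises, which ties the membrane potential to the energy state of the cell. A pore of inward rectifier subunits, Kir6.1 (Kcnj8) or Kir6.2 (Kcnj11), is surrounded by sulfonylurea receptors, SUR2 (Abcc9) or SUR1 (Abcc8), which sense nucleotides and bind channel openers and blockers. Kir6.2 with the SUR2A splice form of Abcc9 makes the channel of ventricular muscle, and its opening in ischaemia or hypoxia shortens the action potential. Kir6.1 with the SUR2B splice form makes the channel of vascular smooth muscle and pericytes, where opening relaxes the vessel. Kir6.2 with SUR1 is the channel of pancreatic beta cells and of the mouse atrium.

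The genes lie in pairs, a pore gene next to a regulatory gene: Kcnj8 and Abcc9 are neighbours on mouse chromosome 6, and Kcnj11 and Abcc8 are neighbours on chromosome 7, with no other protein-coding gene between the partners in the RefSeq table of GRCm38.p6. Because the chromosome 6 pair had lower values together in these arrays, their promoters are shown, as the 250 bases before the start in the RefSeq promoter table (GRCm38.p6), which held 2 of the 4 genes, 5′ to 3′ on the gene's strand. Capitals mark CACCC on either strand and, in Abcc9, GGGCGG on either strand.
Kcnj8 (chr6:142571615-142571864, minus strand): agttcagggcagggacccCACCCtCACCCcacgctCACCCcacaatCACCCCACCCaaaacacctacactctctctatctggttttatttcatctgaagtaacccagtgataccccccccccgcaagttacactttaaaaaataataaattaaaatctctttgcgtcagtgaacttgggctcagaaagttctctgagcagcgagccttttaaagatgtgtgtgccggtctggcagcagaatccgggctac
Abcc9 (chr6:142702275-142702524, minus strand): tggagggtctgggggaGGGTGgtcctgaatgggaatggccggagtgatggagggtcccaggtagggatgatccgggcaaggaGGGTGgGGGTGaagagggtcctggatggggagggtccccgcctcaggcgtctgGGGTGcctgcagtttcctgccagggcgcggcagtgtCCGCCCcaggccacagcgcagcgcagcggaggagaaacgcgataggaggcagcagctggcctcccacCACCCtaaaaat

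A few short motifs were chosen after reading these sequences and searched on both strands, over 32851 windows of the same length. CACCC, the box bound by Krüppel-like factors, occurs 5 times in the Kcnj8 window and 5 times in the Abcc9 window. It is in 52% of all windows, and 0.667% hold at least 5 matches. GGGCGG, the GC box, is in the Abcc9 window once and not in that of Kcnj8, and 32.7% of windows hold it. Neither window holds TATAAA (12.4% of windows), CCAAT (33.8%) or ACGTG, the core of the hypoxia response element (16.6%). The Abcc9 window is GC-rich, at 66.8% G and C, and the Kcnj8 window is at 49.2%, beside a median of 52.4% over all windows. The Abcc9 window ends at a start that is not the gene's furthest, which lies 492 bases upstream of it. The whole window therefore lies within the annotated gene.

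Of the pore genes, Kcnj8 had lower values with FGF21. Its log2 value was 7.13, 7.39 and 7.24 in the FGF21 arrays, against 7.96, 8.01 and 7.75 in the controls. All 3 FGF21 arrays were below all 3 controls, and the gap of 0.361 between the groups was wider than the range within either, 0.253 with FGF21 and 0.263 without. The means were 7.25 ± 0.127 with FGF21 and 7.91 ± 0.139 in controls (SD, n = 3 each), a log2 difference of -0.65 ± 0.09 (SE). On the linear scale this is 0.636-fold (95% interval 0.553 to 0.732), or 36.4% lower.

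In the fit of all 22180 genes by limma, Kcnj8 had the unadjusted p of rank 8 (3.28e-05), and its Benjamini-Hochberg adjusted p of 0.0685 did not pass 0.05. No gene passed in that fit (0%; smallest adjusted p 0.0507), while 11.7% of genes had an unadjusted p under 0.05. A difference at least as low was found for 0.00902% of genes, and only 1 other gene, Derl3, was lower by more. The call for Kcnj8 depends on the setting: limma's adjusted p was 0.0208 when genes under the median level were dropped, 0.0459 with quantile normalization applied again and 0.0403 with a trend and robust prior. Leaving out 1 array moved the log2 difference between -0.73 and -0.59, with adjusted p from 0.119 to 0.269.

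Kcnj11, which encodes the pore of the ventricular channel, had a difference close to 0. Its log2 values were 7.33, 7.21 and 7.13 with FGF21, against 7.32, 7.26 and 7.30 in controls. The groups overlapped, and the highest of all 6 values was that of an FGF21 array. The log2 difference was -0.07 ± 0.07 (SE), or 0.952-fold, with a 95% interval from 0.854 to 1.06 and a limma adjusted p of 0.723. With 3 arrays a group, a change within that interval could not be seen.

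**Figure D1:**
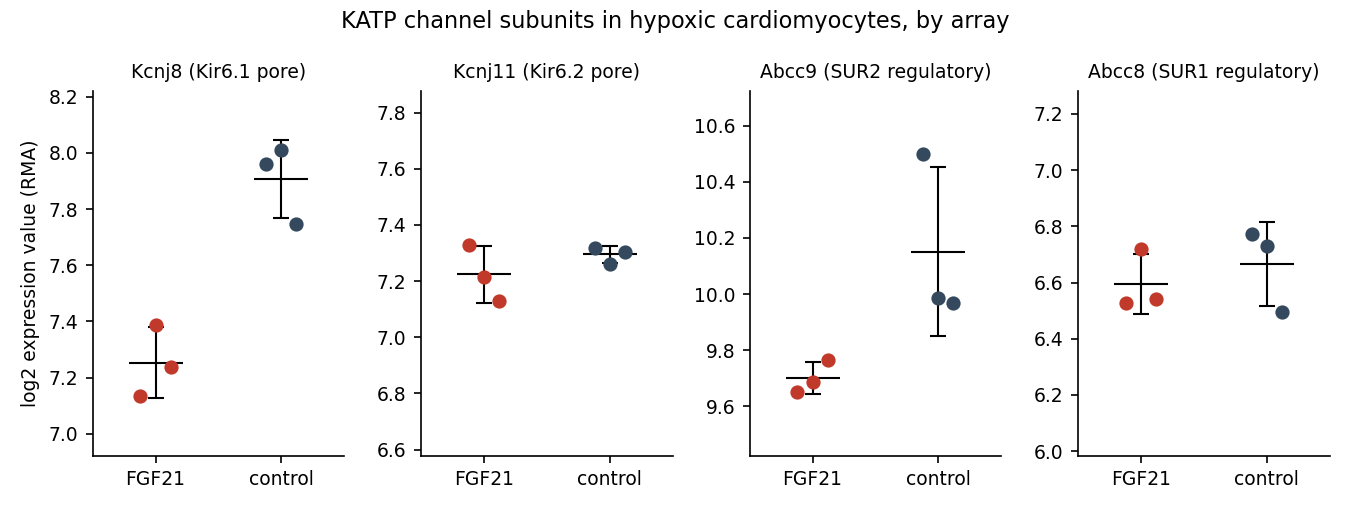
Log2 expression values (RMA) of the 4 subunit genes in each array, FGF21 left of control, with a bar at the mean and whiskers of 1 SD (n = 3 each); each panel spans the same number of log2 units. The groups separate for Kcnj8 and Abcc9 and overlap for Kcnj11 and Abcc8, and control replicate 1 stands above the other controls in Abcc9, at 10.50.

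Of the regulatory genes, Abcc9 had the lower values with FGF21. Its log2 values were 9.65, 9.69 and 9.76 in the FGF21 arrays, against 10.50, 9.99 and 9.97 in controls. The groups did not overlap, but the controls spread over 0.531, with replicate 1 far above the other 2, while the FGF21 arrays lay within 0.114. The log2 difference was -0.45 ± 0.13 (SE), or 0.732-fold (95% interval 0.601 to 0.891), with an unadjusted p of 0.00557 and a limma adjusted p of 0.251. Without control replicate 1 it was -0.28, with an adjusted p of 0.365. It was below 0 in each of the 13 other settings run, that one included. Many of these could not change the sign, because groups without overlap keep it when any array is left out.

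Control replicate 1 was also the highest of the 6 arrays for some cardiomyocyte markers (Abcc9 is expressed in ventricular muscle too). These were Ryr2, Myh6, Actn2, Tnni3 and Pln. It was not the highest for the other markers of that list, Myh7, Tnnt2, Mb, Nppa, Myl2 and Myl7. Ryr2, the calcium release channel of the sarcoplasmic reticulum, had log2 values of 10.71, 10.71 and 10.79 with FGF21, against 11.17, 10.75 and 10.82 in controls. Myh6, the alpha myosin heavy chain, was at 11.98, 11.84 and 11.85 with FGF21, against 12.19, 11.88 and 11.80 in controls. Their part in the Abcc9 value was not tested.

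Abcc8, the SUR1 gene, had log2 values of 6.53, 6.72 and 6.54 with FGF21, against 6.77, 6.73 and 6.49 in controls. The groups overlapped, with the lowest value of all in a control. Its log2 difference of -0.07 ± 0.09 (SE) is 0.953-fold, with a 95% interval from 0.829 to 1.09 and a limma adjusted p of 0.797. The array has 1 row for Abcc9, so its muscle (SUR2A) and vascular (SUR2B) splice forms were not told apart.

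All 4 subunit genes stood above the median level of all genes, so a filter on dim genes kept them all. Each had a negative difference, with a median of -0.26, beside a median of -0.01 and 52.2% negative over all genes. The FGF21 arrays had lower medians than the controls. With each array centred on its median, the differences were -0.62 for Kcnj8, -0.41 for Abcc9, -0.04 for Kcnj11 and -0.03 for Abcc8. The 2 of 4 whose groups do not overlap are the chromosome 6 pair, where 17.1% of all genes had groups without overlap and 8.14% had them with FGF21 lower. A difference as low as that of Abcc9 was reached by 24 genes, 0.108% of those tested. Since the subunits were chosen with results known, nothing is read from these shares.

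Ratios within an array show whether one subunit differed more than another, although they say nothing about which transcript is more abundant, because rows of different genes are not on a common scale. Kcnj8 minus Kcnj11 was -0.20, 0.17 and 0.11 with FGF21, against 0.64, 0.75 and 0.44 in controls. The vascular pore gene was therefore lower relative to the cardiac one in every FGF21 array than in any control, by 0.58 on average. Abcc9 minus Abcc8 was 3.12, 2.97 and 3.22 with FGF21, against 3.73, 3.26 and 3.47 in controls, again without overlap. The mean difference of that ratio was -0.38, and -0.26 without control replicate 1.

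For the partners of the vascular channel, the ratio did not separate the groups. Kcnj8 minus Abcc9 was -2.52, -2.30 and -2.53 with FGF21, against -2.54, -1.98 and -2.22 in controls. These groups overlap, and the mean difference of -0.20 became -0.35 without control replicate 1 and -0.07 without control replicate 2. Within the ventricular pairing, Kcnj11 minus Abcc9 was -2.32, -2.47 and -2.64 with FGF21, against -3.18, -2.72 and -2.66 in controls. That ratio was higher with FGF21 by 0.38 (0.22 without control replicate 1), and the groups came within 0.03 of each other. No p is given for ratios of genes picked with results known.

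**Figure D2:**
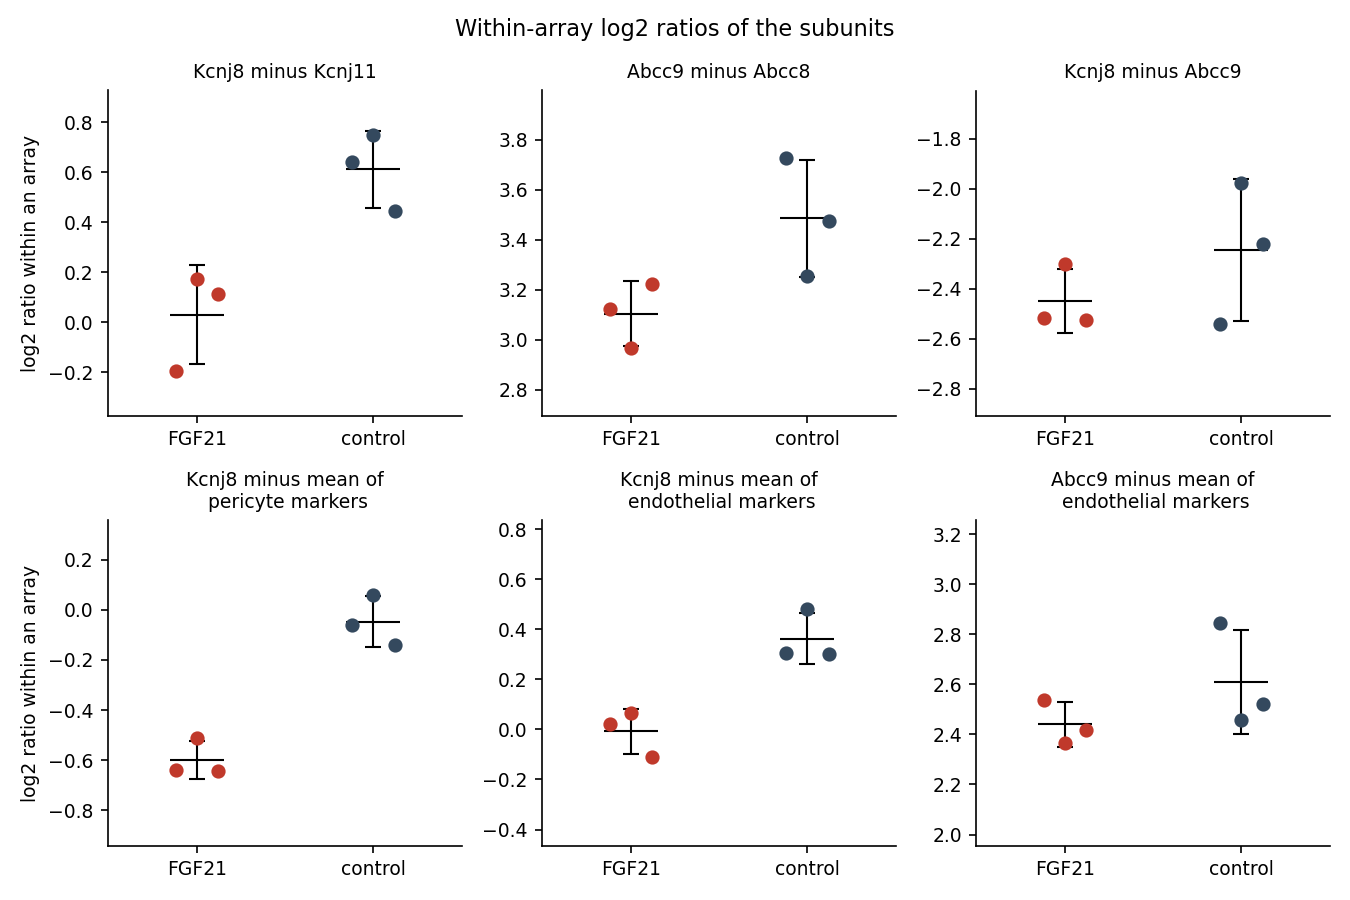
Log2 ratios within each array, FGF21 left of control, with the mean and 1 SD (n = 3 each); every panel spans the same number of log2 units. Kcnj8 relative to Kcnj11, to the mean of 8 pericyte markers and to the mean of 9 endothelial markers is lower in all FGF21 arrays, while Kcnj8 minus Abcc9 and Abcc9 minus the endothelial mean overlap.

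The genes that flank the pairs on their chromosomes were looked at after the values of the subunits were known. On the Kcnj8 side lie Ldhb, a lactate dehydrogenase, and Gys2, the liver glycogen synthase, and on the Abcc9 side Cmas and Sult6b2. Their log2 differences ran from -0.10 to -0.03, and their smallest limma adjusted p was 0.683. Ldhb, next to Kcnj8, had log2 values of 8.48, 8.54 and 8.47 with FGF21, against 8.66, 8.46 and 8.46 in controls. The 4 genes that flank Kcnj11 and Abcc8 (Nomo1, Abcc6, Ush1c and Otog) had differences from -0.12 to 0.11. All 4 flanking differences on chromosome 6 were smaller in size than those of Kcnj8 and Abcc9, and none is shown to be 0.

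Other inward rectifiers of potassium, of which 12 of 13 were measured, were mostly close to 0. Over all genes 0 passed limma's adjusted threshold, and at an unadjusted p under 0.05 the count was 1 of 12, beside the 11.7% of all genes. That gene was Kcnj2, whose product Kir2.1 carries most of the current that holds the resting potential of ventricular muscle. Kcnj2 had log2 values of 7.76, 7.80 and 8.02 with FGF21, against 8.27, 8.02 and 8.11 in controls. The difference was -0.27 ± 0.09 (SE; limma adjusted p 0.311), and the groups came within 0.004 of each other. Kcnj12, which encodes Kir2.2, differed by 0.16, and Kcnj3 and Kcnj5, the pore genes of the acetylcholine-gated atrial channel, by 0.12 and 0.14. The list ran from -0.27 to 0.16 with a median of -0.04, so Kcnj8 and Abcc9 lay below all 12.

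The ABCC family of transporters, to which the sulfonylurea receptors belong, had no such member among the other 9. Their differences ran from -0.11 for Cftr, the chloride channel, to 0.05 for Abcc10, with a median of -0.02. At an unadjusted limma p under 0.05 the count was 0 of 9, and the smallest was 0.334. Over all genes the share was 11.7%, at which so short a list would often have none.

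**Figure D3:**
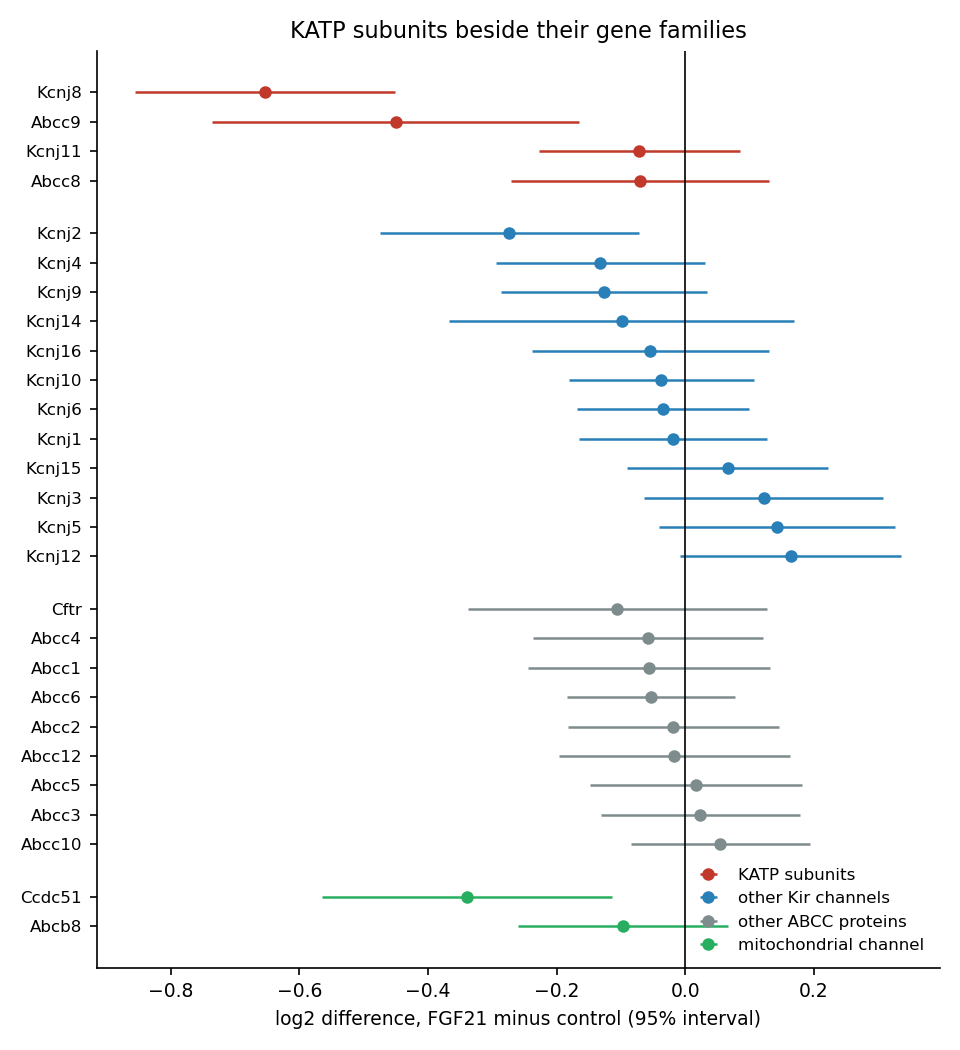
Log2 differences (FGF21 minus control) with limma's 95% intervals for the 4 KATP subunits, 12 other inward rectifiers, 9 other ABCC family members and the 2 genes of the mitochondrial channel. Kcnj8 and Abcc9 lie furthest to the left, and the intervals of Kcnj11, Abcc8 and all 9 other ABCC genes cross 0.

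A separate ATP-sensitive potassium channel of the inner mitochondrial membrane is formed by the products of Ccdc51 (the pore) and Abcb8 (the regulatory subunit). Ccdc51 had log2 values of 6.09, 6.03 and 5.69 with FGF21, against 6.33, 6.21 and 6.27 in controls. The groups did not overlap, and the difference was -0.34 ± 0.10 (SE; limma adjusted p 0.267), or -0.22 without FGF21 replicate 3, which was the lowest. The row of Ccdc51 was dim, under the median level of all genes. Abcb8 differed by -0.10 ± 0.07 (SE) with overlapping groups.

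Genes that anchor or modulate KATP channels were a short list. Of 8, 6 were measured, among them Ank2, an ankyrin that holds Kir6.2 at the membrane, Cav3, the muscle caveolin, and Ehd2, a caveolar ATPase. Their differences ran from -0.10 for Prkaca, a catalytic subunit of protein kinase A, to 0.20 for Ehd2, and 0 of 6 had an unadjusted p under 0.05, beside 11.7% of all genes, a share at which so short a list would often have none. Ehd2 was nearest, at an unadjusted p of 0.0555 with a 95% interval from -0.01 to 0.40. Of 14 measured genes of adenylate kinase, creatine kinase, AMP-activated kinase and the glycolytic enzymes Ldha and Gapdh, 1 did: Ckmt1, a mitochondrial creatine kinase, at -0.21 ± 0.09 (SE). Its values, 5.45, 5.44 and 5.59 with FGF21, against 5.54, 5.75 and 5.83 in controls, overlap and mostly lie under the median of the array. The muscle creatine kinase Ckm, which supplies ATP near the channel, differed by -0.01 ± 0.07 (SE).

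Among 9 measured potassium channel genes of cardiac repolarisation, 2 had an unadjusted p under 0.05, beside 11.7% of all genes. These 2 went in opposite directions. Kcna5, which encodes Kv1.5, had log2 values of 5.64, 5.48 and 5.29 with FGF21, against 5.75, 5.79 and 6.04 in controls, a difference of -0.39 ± 0.10 (SE; limma adjusted p 0.240). Kcna4, which encodes Kv1.4, had 9.78, 9.83 and 9.94 with FGF21, against 9.59, 9.76 and 9.60 in controls, a difference of 0.20 ± 0.07 (SE; limma adjusted p 0.354). The groups did not overlap for either gene, nor for 17.1% of all genes, and the median of the 9 was -0.01. The Kcna5 values mostly lie under the median of the array.

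Of 4 transcription factors on the lists, Foxo1, a forkhead factor restrained by insulin and growth factor signalling, was lower by 0.24 ± 0.07 on the log2 scale (SE; limma adjusted p 0.294). Its log2 values were 7.76, 7.88 and 7.82 with FGF21, against 8.19, 8.01 and 7.98 in controls, without overlap, and its difference was -0.12 when the rows of the gene were averaged. Sp1 differed by -0.15 ± 0.07 (SE; limma adjusted p 0.419), Foxo3 by -0.04 and Hif1a, the hypoxia-inducible factor, by 0.08. Over the 7 lists of related genes together, 7 of 56 measured genes (12.5%) had an unadjusted p under 0.05, close to the 11.7% of all genes, and 0 passed limma's adjusted threshold.

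Kcnj8 and Abcc9 are also markers of pericytes, so the markers of cell types that a heart culture can hold were set beside them. Fewer cells of a type and less RNA per cell cannot be told apart in these samples. The labelled cell type was present in strength: the cardiomyocyte markers averaged 11.01 ± 0.0308 with FGF21 and 11.02 ± 0.0703 in controls on the log2 scale (SD, n = 3 each). The median difference of these markers was -0.01, and 0 of 11 had an unadjusted p under 0.05, beside 11.7% of all genes. Their summed linear signal ran from 40310 to 40718 with FGF21 and from 39907 to 42826 in controls. Fibroblast markers were bright as well, with a mean of 10.68 with FGF21 and 10.67 in controls. Rows of different genes are not on a common scale, so these levels do not give the share of each cell type.

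Pericyte markers gave a divided picture. The median difference of the 8 was -0.00, and 2 had an unadjusted p under 0.05, both lower with FGF21, beside 5.11% of all genes in that direction. Rgs5, a regulator of G protein signalling and a pericyte marker, had log2 values of 7.92, 8.53 and 8.60 with FGF21, against 8.86, 8.86 and 8.81 in controls. Its difference was -0.49 ± 0.15 (SE; limma adjusted p 0.281), and -0.28 without FGF21 replicate 1, which was far below the others.

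Mcam, an adhesion molecule of pericytes and endothelium, had 8.12, 8.18 and 8.13 with FGF21, against 8.85, 8.47 and 8.25 in controls, a difference of -0.38 ± 0.13 (SE; limma adjusted p 0.311) that was -0.22 without control replicate 1. The other 6 lay between -0.03 and 0.07. Pdgfrb, the receptor that recruits pericytes, had 9.85, 9.86 and 9.81 with FGF21, against 10.01, 9.89 and 9.73 in controls. Summed linear signal of the list ran from 2835 to 3056 with FGF21 and from 2942 to 3372 in controls. Relative to the mean of the 8 markers, Kcnj8 was at -0.64, -0.51 and -0.65 with FGF21, against -0.06, 0.06 and -0.14 in controls. The difference was -0.55 and lay between -0.60 and -0.50 with any 1 array left out. That mean pools genes whose differences ran from -0.49 (Rgs5) to 0.07 (Higd1b). The ratio is therefore not a correction for a shift of pericytes.

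Endothelial markers were lower as well. Of 9, 7 had an unadjusted p under 0.05 with lower values under FGF21, beside 5.11% of all genes in that direction, and the list median was -0.32 (-0.21 without FGF21 replicate 1). Kdr, the main VEGF receptor, had log2 values of 6.85, 7.23 and 7.15 with FGF21, against 8.10, 7.60 and 7.36 in controls. Its difference of -0.61 ± 0.17 (SE; limma adjusted p 0.241) was -0.41 without control replicate 1. Erg, a transcription factor of endothelial identity, differed by -0.35 ± 0.08 (SE; limma adjusted p 0.191). Tek and Tie1, the angiopoietin receptor and its relative, differed by 0.00 and -0.04. Summed linear signal of the list ran from 1557 to 1891 with FGF21 and from 2055 to 2518 in controls, without overlap.

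Relative to the mean of the endothelial markers, Kcnj8 was at 0.02, 0.07 and -0.11 with FGF21, against 0.31, 0.48 and 0.30 in controls. The mean difference of that ratio was -0.37. The marker mean pools genes that differed by as little as 0.00 (Tek) and as much as -0.61 (Kdr). The ratio is therefore not a correction for the endothelial shift. Abcc9 relative to the same mean was at 2.54, 2.37 and 2.42 with FGF21, against 2.85, 2.46 and 2.52 in controls. Those groups overlap, and the mean difference of -0.17 was -0.05 without control replicate 1. Relative to the pericyte mean, Abcc9 was at 1.88, 1.79 and 1.88 with FGF21, against 2.48, 2.04 and 2.08 in controls. Those groups did not overlap, and the mean difference was -0.35, or -0.21 without control replicate 1. Relative to the cardiomyocyte mean it was at -1.367, -1.344 and -1.208 with FGF21, against -0.606, -1.004 and -1.009 in controls. Again the groups did not overlap, and the mean difference was -0.43, or -0.30 without control replicate 1. How far the endothelial shift enters the Kcnj8 and Abcc9 values was not tested. The ratios to marker means were added after the data were seen, and none of them is a correction for a shift of the cells concerned.

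**Figure D4:**
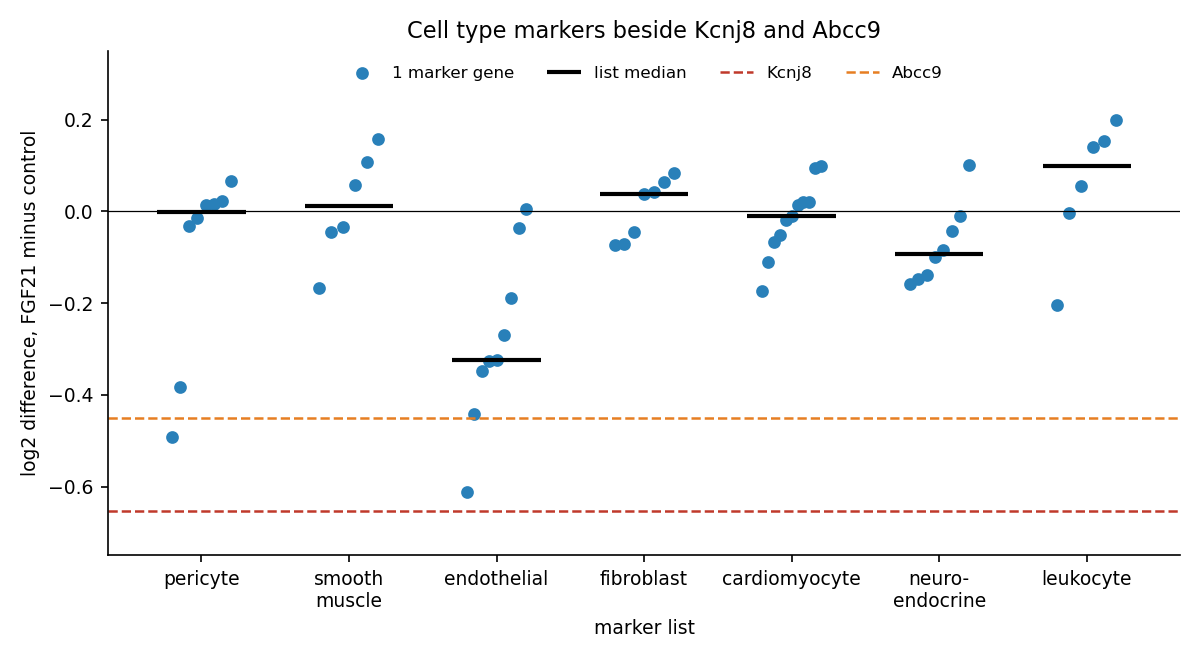
Log2 differences (FGF21 minus control) of every measured marker gene, by cell type list, with the list median as a black bar and the differences of Kcnj8 (-0.65) and Abcc9 (-0.45) as dashed lines. All endothelial markers but 2 lie well below 0, and 2 of 8 pericyte markers do, while the medians of the smooth muscle, fibroblast and cardiomyocyte lists are near 0.

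Markers of smooth muscle, the other main site of the vascular channel, had a median of 0.01 over 6. Myh11, the smooth muscle myosin heavy chain, was at 6.85, 6.84 and 6.90 with FGF21, against 6.70, 6.68 and 6.74 in controls, a difference of 0.16 ± 0.06 (SE; limma adjusted p 0.366). The 6 were split, 3 higher and 3 lower with FGF21, and Cnn1, the smooth muscle calponin, had the lowest difference, at -0.17, with overlapping groups. Fibroblast markers had a median of 0.04 over 7 (from -0.00 without FGF21 replicate 3 to 0.08 without FGF21 replicate 1). Of these, 0 had an unadjusted p under 0.05, beside 11.7% of all genes. Neuroendocrine markers, set beside Abcc8 because SUR1 is a channel subunit of neurons and endocrine cells, were dim. The mean of the 8 was 5.37 ± 0.0381 with FGF21 and 5.44 ± 0.0298 in controls (SD, n = 3 each). Both lie under the lowest array median of 5.76, and the groups did not overlap for that mean. The median difference was -0.09, and 7 of 8 were lower with FGF21, beside 52.2% of all genes. At an unadjusted limma p under 0.05 there were 0, beside 11.7% of all genes. Leukocyte markers had a median of 0.10 over 6 (0.03 without control replicate 1 and 0.04 without FGF21 replicate 2), with Ptprc at 0.20 ± 0.08 and Cd68 at -0.20 ± 0.06 (SE).

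The genes whose values followed each subunit most closely over the 6 arrays were found as those with the smallest root mean square difference after centring each gene on its mean, among 17719 genes. For Kcnj8 these were Tnfrsf9, the co-stimulatory receptor CD137, at a distance of 0.077 log2 units, and Sparcl1, a matricellular protein, at 0.112. Tnfrsf9 had log2 values of 7.43, 7.66 and 7.65 with FGF21, against 8.16, 8.18 and 8.05 in controls. Sparcl1 had 9.41, 9.70 and 9.75 with FGF21, against 10.39, 10.18 and 10.18 in controls. For Abcc9 the nearest were Tmem255a, at 0.0605, and the pericyte and endothelial gene Mcam, at 0.0772, both with control replicate 1 highest.

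Tmem255a had log2 values of 5.76, 5.82 and 5.76 with FGF21, against 6.61, 6.11 and 6.18 in controls. Kcnj8 and Abcc9 were 0.205 apart by the same measure, and Kcnj11 and Abcc8 were 0.128 apart. For Kcnj11 the nearest genes were Vmn1r49, a vomeronasal receptor with values under 4 in all arrays, and Abhd14a, and for Abcc8 they were Zer1 and Tnks, at distances from 0.0184 to 0.0199. Genes with little spread are near many others by this measure, and among so many genes some lie close to any pattern of 6 values.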

How the data were processed

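Each sample was hybridised to 1 Mouse Gene 2.0 ST array (Affymetrix). The authors deposited log2 values. Per the submitters' processing notes they used RMA, R 3.2.2 and affy. RMA corrects background, normalizes arrays and summarises probes, which compresses small signals. Neither the chip definition nor the genome build is given in the sources used here. Medians ran from 5.76 to 5.79 in the FGF21 arrays and from 5.81 to 5.83 in controls, and 0 pairs of arrays held identical values. The number of arrays limits the precision.

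Of 41345 rows, 23521 had 1 symbol in the platform annotation, 1814 had several and were not named, and 16010 were unnamed. A lookup of gene numbers in RefSeq (GRCm38.p6) changed 0 symbols. The brightest row of a gene was kept, leaving 22180 genes.

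FGF21 minus control was fitted over all genes in R 4.3.3 by limma 3.58.1, using lmFit with no covariate and eBayes with its default prior (two-sided), with Benjamini-Hochberg adjustment over all genes and a threshold of 0.05. The fit was checked on simulated data, where only added changes larger than those of the subunits had to be recovered. Smaller changes were added as well, but the check set no requirement for them, and their recovery is not given here. Passing it therefore says nothing about changes of the subunits' size. Groups and replicate numbers come from the titles. The subunits, the gene lists and the marker lists were chosen with earlier results of these data known. Genes named from a list are those of smallest unadjusted p under 0.05, at most 2 per list, and for each subunit the 2 genes nearest in pattern; others, chosen after their values were seen, stand as ends of a range, as family members or as checks of the cells. Predicted genes, olfactory receptors (symbols in Olfr) and small RNAs were left out of the pattern search, and vomeronasal receptors were kept.

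Deviations of same-numbered arrays from their group means correlated at 0.103, 0.158 and 0.00653, and differently numbered ones from -0.160 to 0.0416. The values 0.103 and 0.158 lie above all differently numbered ones, so whether the numbers pair the arrays is not settled. The titles state no pairing, and the reported fit did not use one.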

Additional observations from a re-analysis of the deposited data

How the results depend on the processing

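The differences of Kcnj8 and Abcc9 kept their sign in all 13 alternatives run for each, but in many of these no other sign was possible. The replicate block, leaving out dim genes, averaging rows and the trend and robust prior left these differences as they were. Groups without overlap also keep their sign when any array is left out. Kcnj8 was past 0.05 (limma adjusted) in 3 of the alternatives: when genes under the median level were dropped (-0.65), with quantile normalization applied again (-0.70) and with a trend and robust prior (-0.65). Abcc9 ran from -0.54 to -0.28 and Kcnj11 from -0.12 to -0.02 with 1 array left out, Abcc8 from -0.16 to -0.02, and none of the 3 passed in any setting. The count of genes past 0.05 over all genes, 0 in the reported fit, was 58 with dim genes left out and 16 with the trend and robust prior. It was 12 with each array centred on its median and 5 with quantile normalization applied again. It was 2 with rows of a gene averaged, 2 with array weights and 0 to 2 with 1 array left out. The cause was not tested. Leaving out dim genes cut the number of genes tested and also changed the unadjusted limma p, for Kcnj8 from 3.28e-05 to 1.50e-05. Genes at an unadjusted p under 0.05 numbered 2594, 1700 with dim genes left out, where fewer genes were tested, and 1710 to 3028 with 1 array left out (1710 without FGF21 replicate 2). In the related lists that count was 7, and 4 with dim genes left out. The replicate block, which treats arrays of the same number as matched, left the Kcnj8 difference at -0.65 (limma adjusted p 0.0605). It gave 2902 genes at an unadjusted p under 0.05. Dim rows such as Ckmt1, near or under the array medians, limit what a small difference can show.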

Other observations

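Derl3, which takes part in the degradation of misfolded proteins of the endoplasmic reticulum, was the 1 gene with a more negative difference than Kcnj8. It was singled out after its value was seen. Its log2 values were 6.39, 6.53 and 6.46 with FGF21, against 7.42, 6.96 and 7.10 in controls, without overlap. The difference was -0.70 ± 0.11 (SE), or 0.615-fold, with a limma adjusted p of 0.0774.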
